A study of Mus musculus with 8 samples.

Results

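A small set of BRG1 sites in mouse primary uterine stromal cells (mUSCs) had no PBRM1 peak. They were 603 of the 81327 peaks called on the pooled BRG1 fragments on chromosomes 1 to 19. The set was chosen by measured peak calls: a pooled BRG1 peak had to share at least 1 bp with a peak in each of the 3 BRG1 replicate lists and with no peak of the pooled PBRM1 list. Of 21134 pooled BRG1 peaks found in all 3 replicates, 20531 overlapped PBRM1 and 603 (2.85%) did not. The fold enrichments, q-values and PBRM1 distances of these sites come from the calls that selected them and are given as a description. Position and sequence played no part in the choice.

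The cells were isolated from the uteri of WT female mice aged 8 to 12 weeks on D4. The sample characteristics give D4 of pregnancy, whereas the isolation protocol names pseudopregnant D4 mice. Horns of 5 to 10 mice were pooled per preparation, no gene was modified in any sample, and the study calls the replicates biological, while the labels do not tie them to preparations. In chromatin immunocleavage sequencing (ChIC-Seq), an antibody carries a micrococcal nuclease to its antigen in fixed chromatin and the released fragments are sequenced. PBRM1 and BRG1 were each assayed in 3 libraries, and 2 IgG libraries were not analysed here. The sample records give 50000 fixed cells per library, whereas the methods of the study give a higher number of cells. The replicates held 11506964 to 14595089 fragments for BRG1 and 8868777 to 16505239 for PBRM1, and the pooled totals were 37842839 and 38144108. Peaks were called against the local background of the same library, with no control file.

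SWI/SNF complexes use ATP to slide or evict nucleosomes, and BRG1 (encoded by *Smarca4*) is one of their alternative ATPases. BRG1 is shared by several assemblies. PBRM1, also named BAF180, carries a row of bromodomains that bind acetylated histones and belongs to the PBAF assembly. The canonical BAF assembly holds ARID1A or ARID1B, lacks PBRM1 and is known mainly from enhancers. These lists do not say which assembly lies at a site.

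Sequence around the summit is shown for the 6 sites of highest BRG1 fold enrichment and for the next eligible site at a protein-coding promoter, because these are the strongest BRG1 signals that met the rule. Each run holds 100 bases on either side of the pooled summit on the + strand of GRCm38 (mm10), and sites are named by the protein-coding or lncRNA gene with the nearest transcription start site (TSS). Capitals mark every match, on either strand, to 19 transcription factor motifs. Those matched here were AP-1 (TGANTCA), the NF-Y box (CCAAT), the GC box of SP and KLF factors (GGGCGG), ETS (CCGGAAG), RUNX (TGTGGT), HOX (TTTATNG), C/EBP (TTGCNNAA), STAT (TTCCNGGAA), the NFI half-site (TTGGCA), and by name the CTCF core and the steroid receptor palindrome.
*Gm15319* (chr8:20424745-20424945): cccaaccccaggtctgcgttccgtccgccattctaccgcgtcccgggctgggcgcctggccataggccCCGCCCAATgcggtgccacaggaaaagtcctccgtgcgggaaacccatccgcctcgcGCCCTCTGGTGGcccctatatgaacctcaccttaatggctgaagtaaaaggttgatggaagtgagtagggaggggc
*Insc* (chr7:114817652-114817852): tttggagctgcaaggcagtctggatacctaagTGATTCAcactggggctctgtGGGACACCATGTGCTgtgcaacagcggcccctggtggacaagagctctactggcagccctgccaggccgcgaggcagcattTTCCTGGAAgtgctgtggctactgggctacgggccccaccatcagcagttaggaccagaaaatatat
*Slc25a1* (chr16:17938929-17939129): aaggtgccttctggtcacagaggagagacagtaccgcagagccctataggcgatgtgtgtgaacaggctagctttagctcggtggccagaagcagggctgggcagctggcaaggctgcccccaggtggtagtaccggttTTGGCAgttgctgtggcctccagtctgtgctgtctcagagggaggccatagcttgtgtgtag
*Hnmt* (chr2:24048475-24048675): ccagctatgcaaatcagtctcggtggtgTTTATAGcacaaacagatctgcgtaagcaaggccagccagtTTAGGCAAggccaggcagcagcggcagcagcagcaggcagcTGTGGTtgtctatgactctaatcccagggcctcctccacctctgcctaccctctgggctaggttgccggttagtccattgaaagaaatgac
*Gnb1* (chr4:155481473-155481673): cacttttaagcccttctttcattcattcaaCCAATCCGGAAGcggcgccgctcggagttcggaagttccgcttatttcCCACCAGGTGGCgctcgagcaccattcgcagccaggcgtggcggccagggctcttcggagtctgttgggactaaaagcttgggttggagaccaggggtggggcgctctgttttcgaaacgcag
*A730049H05Rik* (chr6:92787412-92787612): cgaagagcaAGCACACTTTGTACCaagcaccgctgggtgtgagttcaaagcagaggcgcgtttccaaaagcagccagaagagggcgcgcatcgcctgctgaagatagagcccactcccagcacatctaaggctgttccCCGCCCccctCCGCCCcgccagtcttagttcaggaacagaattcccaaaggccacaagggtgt
*Msrb3* (chr10:120850680-120850880): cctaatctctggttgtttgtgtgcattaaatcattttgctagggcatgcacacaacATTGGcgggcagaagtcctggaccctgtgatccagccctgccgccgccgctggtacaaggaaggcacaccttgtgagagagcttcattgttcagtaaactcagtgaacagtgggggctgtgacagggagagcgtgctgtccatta

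No motif was matched in all of these windows. The site near *Gm15319* matched the CTCF core at bases 126 to 137, and the site near *Gnb1* at bases 79 to 90, counted from the left end. A match to the CTCF core occurred in 1.87% of windows of this length at all pooled BRG1 peaks. The steroid receptor palindrome, present in 0.196% of those windows, matched at bases 54 to 68 near *Insc* and at bases 10 to 24 near *A730049H05Rik*. The AP-1 string near *Insc* occurred in 8.47% of them, the STAT string there in 0.739%, and the HOX, C/EBP and RUNX strings near *Hnmt* in 6.65, 7.35 and 14.3%. The NFI half-site near *Slc25a1* occurred in 12.7%, the ETS string near *Gnb1* in 3.31%, and the GC box and the NF-Y box in 20.5% and 21.0%. In the *Gm15319* window the GC box and the NF-Y box overlapped. By exact match, each printed window occurred once on chromosomes 1 to 19, and so did its central 50 bases. Near-identical copies and sequence outside these chromosomes were not searched. These are letter matches and not measured binding sites, and the RefSeq genome of GRCm38 supplied the letters.

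The site of highest fold enrichment stood apart from all the others. It lay near *Gm15319* at chr8:20424151-20424902 and reached a fold enrichment of 41.6 in the pooled list. Its values were 31.8, 28.4 and 28.3 in BRG1 replicates 1, 2 and 3, a mean of 29.5 ± 1.98 (SD, n = 3). The summit was 31 bp upstream of *2610005L07Rik*, annotated as a transcribed unprocessed pseudogene, and 61635 bp from the *Gm15319* TSS. The nearest PBRM1 peak was 127008 bp away and the nearest other reproducible BRG1 peak 126533 bp away. The next site reached 13.3.

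The 15 sites of highest fold enrichment ranged down to 9.39. Of these, 5 were at promoters (within 2000 bp of any annotated TSS), 5 in introns, 4 between genes and 1 in an exon. The nearest gene was protein coding for 8 and a lncRNA for 7. The second site, at chr7:114817510-114817795, lay in an intron 23784 bp downstream of the TSS of *Insc*, an adaptor of spindle orientation, with fold enrichments of 8.97, 8.50 and 10.4 in the 3 replicates. The third lay 10810 bp upstream of *Slc25a1*, the mitochondrial citrate carrier, with 10.6, 6.31 and 9.65. For *Slc25a1* replicate 2 was the lowest, whereas the replicates at *Insc* differed by less than 2. The fourth, with 9.99, 7.77 and 7.89, was 291 bp downstream of the TSS of *Hnmt*, the enzyme that methylates histamine. The fifth, with 9.73, 8.98 and 10.5, was 9788 bp upstream of *Gnb1*, which encodes a G protein beta subunit, and its edge was 266 bp from a PBRM1 peak. Proximity to a PBRM1 peak also applied to *Hnmt* (444 bp), *Cdk5r2* (739 bp) and *Gm13584* (937 bp), an antisense transcript 4977 bp from the summit whose nearest coding gene was *Lhx2*, a LIM homeobox factor.

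**Figure D1:**
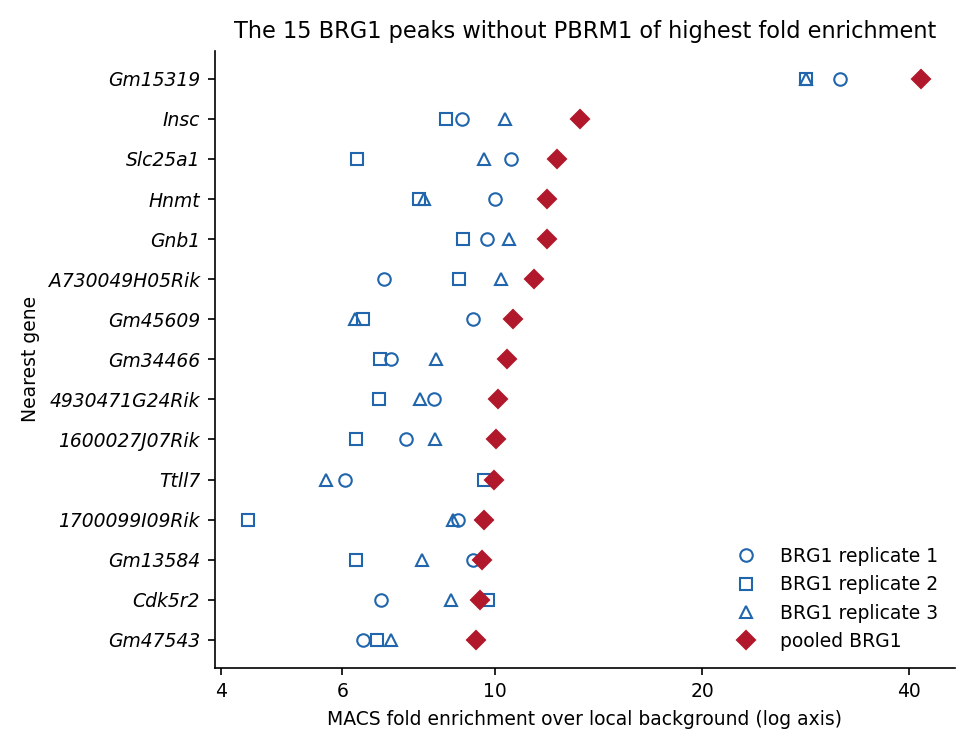
MACS fold enrichment over the local background (log axis) of the 15 BRG1 sites without PBRM1 with the highest pooled value, by nearest gene. Open symbols are the 3 BRG1 replicates and diamonds the pooled list. The site near *Gm15319* lies at 28.3 to 31.8 in the replicates and at 41.6 in the pooled list, to the right of all others.

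Relative to their mean, the replicates spread most, among these 15, at *1700099I09Rik*, where the fold enrichments were 8.85, 4.38 and 8.69, and at *Ttll7*, a tubulin polyglutamylase gene, where they were 6.05, 9.64 and 5.68. They spread least at *Gm47543*, with 6.43, 6.73 and 7.06. Over all 603 sites the coefficient of variation between replicates had a median of 14.0%, against 12.1% in BRG1 peaks with PBRM1 of the same fold enrichment. At promoters the medians were 14.9% and 11.4%, and outside promoters 13.1% and 13.4%. The 3 replicate summits lay within a median of 107 bp of each other, against 128 bp in those peaks with PBRM1. The pooled fold enrichment ran from 2.86 to 41.6 with a median of 5.70, and 10 sites reached at least 10. In rank of q-value among all pooled BRG1 peaks, the sites ran from 70 to 51573 with a median of 23828, whereas peaks with PBRM1 had a median rank of 10494.

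The absence of PBRM1 was a matter of degree. Of the 603 sites, 573 had no peak in any PBRM1 replicate list and 30 had one in a single list (7, 12 and 11 in replicates 1, 2 and 3). The count depended on the rule. With BRG1 replicate 1, 2 or 3 left out of the rule it was 1276, 1570 or 1455. With PBRM1 judged by its 3 replicate lists in place of the pooled one it was 2063, and without PBRM1 replicate 1, 2 or 3 it rose to 2858, 3239 or 2745. The gap to the nearest pooled PBRM1 peak had a median of 6615 bp. It was at most 500 bp for 98 sites (16.3%; 95% Wilson interval 13.5 to 19.4%) and at most 1000 bp for 146 sites (24.2%; 21.0 to 27.8%). Wilson intervals here cover counting error only, and peaks of a library are not replicates. The sites just inside the rule were near *Sgms1*, *Myof* and *Zcchc7*, with gaps of 3, 15 and 19 bp and fold enrichments of 4.91, 5.86 and 4.88. The peaks just outside it were near *Gm13056*, *Gramd1b* and *9430078K24Rik*, with 39, 41 and 47 bp covered by PBRM1 and fold enrichments of 4.67, 4.04 and 3.89.

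Sites close to a PBRM1 peak and sites away from one differed in place, given here as a description. Of the 146 within 1000 bp, 50.7% were at promoters and 52 had another reproducible BRG1 peak within 1000 bp. Of the 457 farther away, 22.1% were at promoters and 1 had such a neighbour. The neighbour counts are tied to the split and are not read as a result. Of 21134 reproducible BRG1 peaks 20531 overlapped PBRM1, so that a close BRG1 neighbour mostly brings a PBRM1 peak close. Median fold enrichments of the near and far sites were 5.39 and 5.91, and mean G and C contents of the 501-bp summit windows were 56.2% and 51.7%.

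The share of reproducible BRG1 peaks that lacked PBRM1 fell with fold enrichment, and it was higher outside promoters in each of 10 classes. Over all classes it was 1.20% at promoters (175 of 14576) and 6.53% elsewhere (428 of 6558). In the lowest class, with fold enrichments up to 4.79, 85 of 785 peaks outside promoters (10.8%) and 56 of 1329 at promoters (4.21%) lacked PBRM1. In the highest class, from 12.9 up, the counts were 1 of 170 and 1 of 1944. The last 2 are the sites near *Insc* and *Gm15319*. Because the same BRG1 calls chose the sites, these shares are a description.

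**Figure D2:**
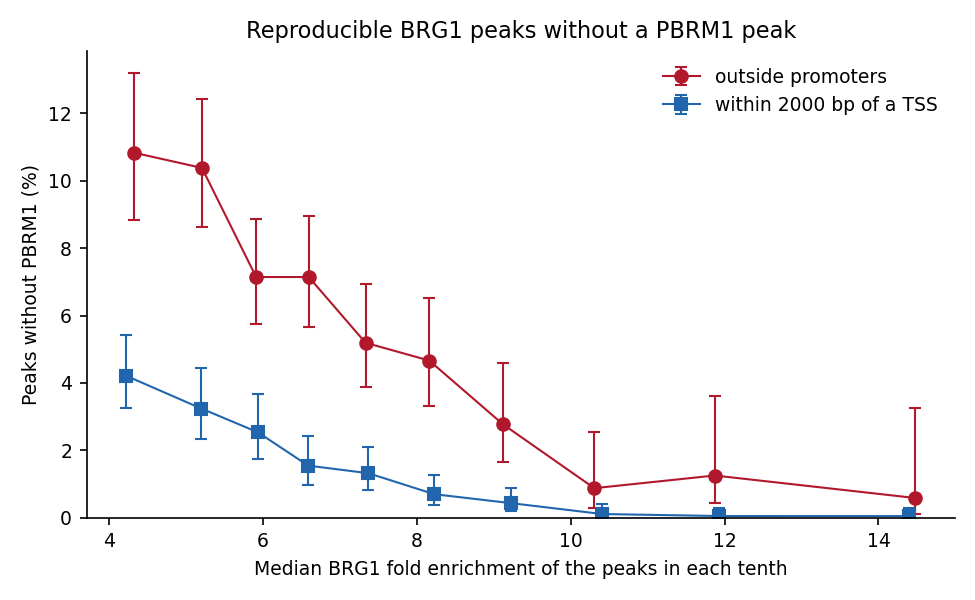
Percent of reproducible BRG1 peaks without PBRM1 against the median BRG1 fold enrichment of 10 equal classes, outside promoters (circles) and within 2000 bp of a TSS (squares). Bars are 95% Wilson intervals; the circles fall from 10.8% to 0.588% and lie above the squares, which fall from 4.21% to 0.0514%.

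Sites without PBRM1 lay farther from a TSS, and more often in introns, exons and between genes, than BRG1 peaks with PBRM1 of similar fold enrichment. For this comparison the peaks with PBRM1 were weighted to the sites' 10 classes of fold enrichment. Within 2000 bp of a TSS lay 29.0% of the sites (25.5 to 32.8%) and 60.3% of the weighted peaks. Introns held 35.0% against 18.5%, exons 4.81% against 2.84%, and the space between genes 31.2% against 18.4%. The median distance to a TSS was 7483 bp, against 656 bp.

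The same comparison was made within each BRG1 replicate list, in classes of that list's own fold enrichment. Promoter shares were 28.7, 29.2 and 29.0% for peaks at the sites in replicates 1, 2 and 3, and 60.9, 60.1 and 60.7% for peaks with PBRM1. The difference was −31.6 ± 0.668 percentage points (SD, n = 3), in the same direction in 3 of 3 replicates. An exact two-sided sign-flip permutation test gave p = 0.25, the smallest that 3 replicates allow. The median TSS distances were 7438, 7544 and 7468 bp against 692, 718 and 671 bp, a difference of 6790 ± 40.5 bp with the same exact permutation p = 0.25. In both measures the ranges of the replicates did not overlap. The 3 lists cover the same sites, so this spread is that of the libraries and not that of new sites.

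The fold enrichment classes did not make the peaks alike in every respect. The sites had a median pileup of 31 fragments and a median −log10 q of 13.9, against 55 and 21.8 in the weighted peaks with PBRM1. Weighting by classes of −log10 q in place of fold enrichment brought the comparison peaks to a pileup of 34, a promoter share of 45.9% and a median TSS distance of 3228 bp. The direction was the same, and the difference in promoter share fell to −16.9 percentage points.

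**Figure D3:**
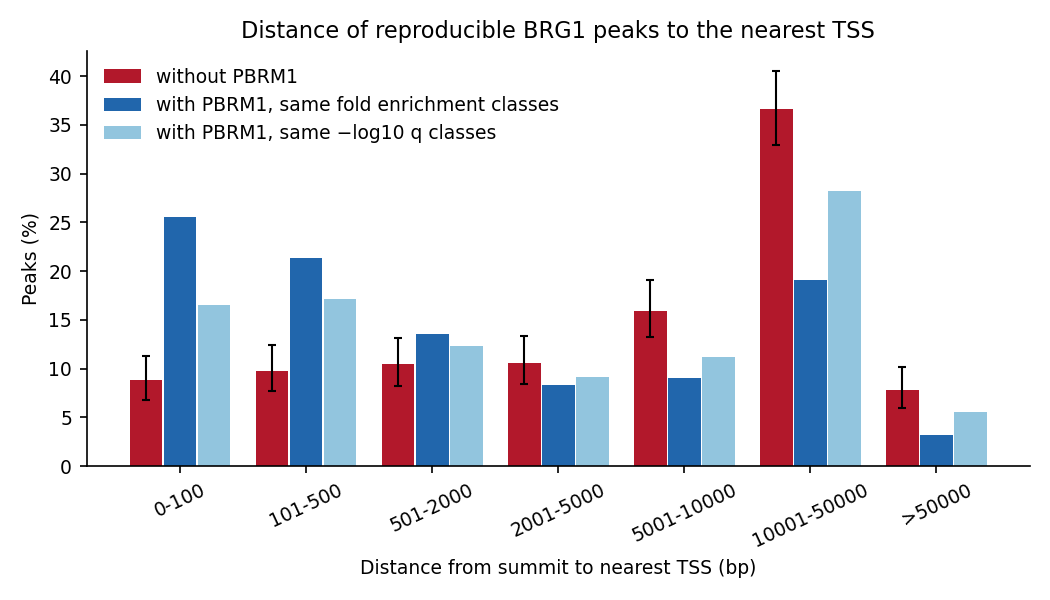
Percent of peaks by distance from the summit to the nearest TSS (bp), for the 603 BRG1 sites without PBRM1 (95% Wilson intervals) and for peaks with PBRM1 weighted to the same classes of fold enrichment or of −log10 q. Up to 100 bp the shares are 8.79, 25.5 and 16.5%, and from 10000 to 50000 bp 36.7, 19.1 and 28.2%.

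**Figure D4:**
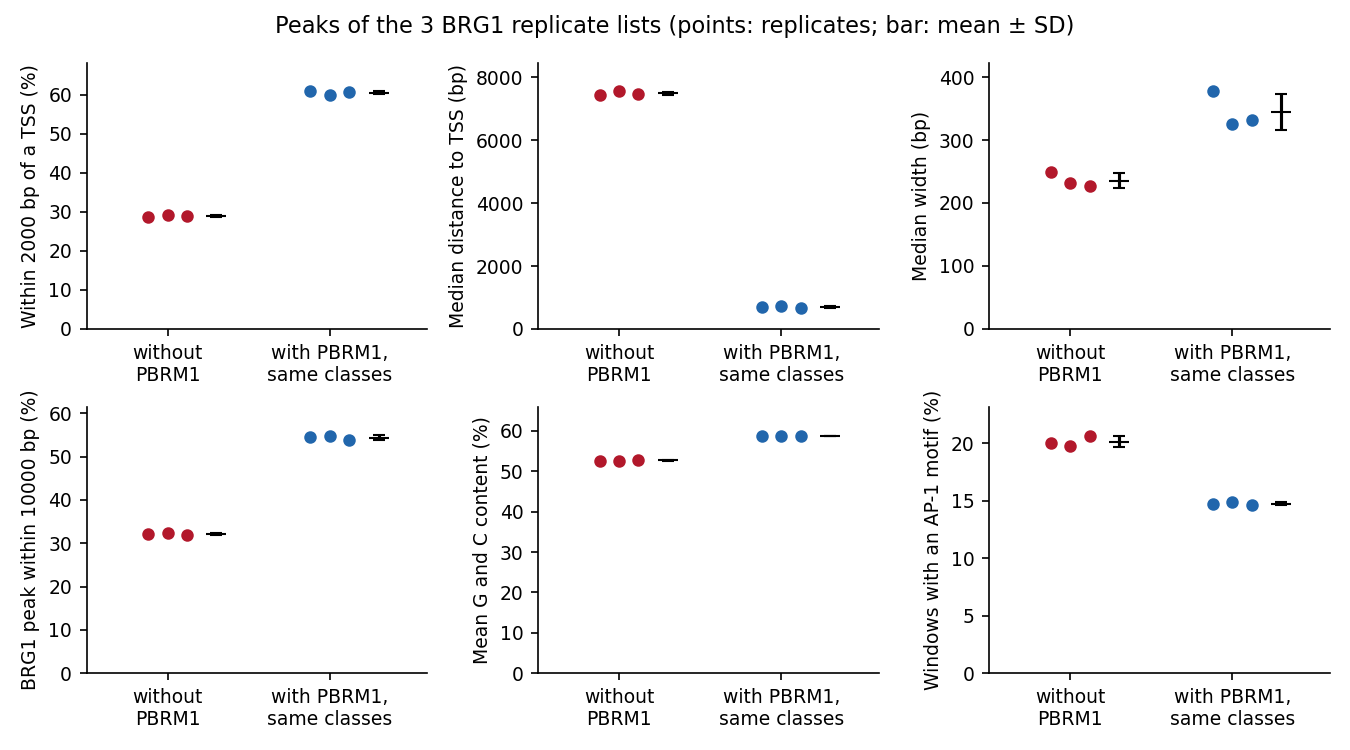
Promoter share, TSS distance, width, neighbour share, G and C content and AP-1 share in the 3 BRG1 replicate lists, for peaks at sites without PBRM1 and for peaks with PBRM1 in the same fold enrichment classes. Points are replicates and bars mean ± SD. The neighbour share counts other peaks of the same list at reproducible BRG1 peaks, also within the same pooled peak. In each panel the points of the 2 sets do not overlap, and only the TSS distance and the AP-1 share are higher at sites without PBRM1.

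At promoters, the nearest TSS belonged to a protein-coding gene for 129 of the 175 sites, to a lncRNA for 24 and to another class for 22. A PBRM1 summit lay within 2000 bp of that same TSS for 78 of the 175 (44.6%), which leaves 97 promoter sites with no PBRM1 summit at the promoter. The 6 coding promoters of highest fold enrichment were those of *Hnmt*, *Cdk5r2*, *Tmcc1*, *Msrb3*, *Dok7* and *B3galnt1*. *Cdk5r2* encodes the p39 activator of CDK5, *Msrb3* a methionine sulfoxide reductase, *Dok7* an activator of the muscle kinase MuSK, and *B3galnt1* a glycosyltransferase that makes globoside.

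These promoters differed in how close PBRM1 came. At *Msrb3* the fold enrichments were 6.99, 8.05 and 8.24 in the 3 BRG1 replicates, with the summit 312 bp upstream of the TSS and PBRM1 6087 bp away. At *Dok7* they were 6.69, 7.48 and 8.88, with the summit 40 bp downstream of the TSS and PBRM1 22195 bp away. At *B3galnt1* they were 6.86, 7.28 and 8.27, with the summit 41 bp upstream and a PBRM1 peak 199 bp away. *Tmcc1*, an endoplasmic reticulum membrane protein gene, had the widest spread of these promoters, with 10.1, 5.39 and 3.75 and PBRM1 34412 bp away. *Cdk5r2* had 6.82, 9.78 and 8.63, 57 bp upstream of its TSS. Sequence windows of *Cdk5r2* and *Tmcc1* touch an untranslated region and are not shown.

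The sites were narrower than the comparison peaks. Their median width was 446 bp in the pooled list, against 672 bp in fold enrichment classes and 623 bp in −log10 q classes. In BRG1 replicates 1, 2 and 3 the median was 249, 231 and 227 bp against 377, 326 and 331 bp, with no overlap between the sets. A wide peak has more bases that can meet a PBRM1 peak, so that width is tied to the rule and is given as a description.

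Whether the sites sat in BRG1 clusters depended on the comparison. Another reproducible BRG1 peak lay within 10000 bp of 182 sites (30.2%; 26.7 to 34.0%), against 44.7% of peaks with PBRM1 in fold enrichment classes and 30.0% in −log10 q classes. The replicate lists gave 32.1, 32.3 and 31.8% against 54.5, 54.8 and 53.8% in fold enrichment classes, a difference of −22.3 ± 0.278 percentage points (exact sign-flip permutation p = 0.25, n = 3). The replicate shares count other peaks of the same list, also within the same pooled peak, so they are not the same measure as the pooled shares. With −log10 q classes the difference in the pooled list was 0.205 percentage points and of the opposite sign. Classes of −log10 q were not used in the replicate lists.

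Of the 603 sites, 6 (0.995%) had another site without PBRM1 within 10000 bp. As the sites are 2.85% of reproducible BRG1 peaks and 182 of them had any such peak that near, the count is not read as a result. The pairs were *Vezf1* and *Gm15892* at neighbouring TSSs with a gap of 8110 bp, 2 sites at *Prdm13* with a gap of 8654 bp and 2 at *Fam92b* with a gap of 5938 bp. *Vezf1* and *Prdm13* encode zinc finger transcription factors. The 603 sites had 587 nearest genes, of which 16 had 2 sites and none had 3. These 16, singled out after their values were seen, include *Igf1r* (a growth factor receptor), *Notch2* (a receptor of cell contact signalling), *Chd7* (a nucleosome remodeler), *Bach2*, *Bcl11b* and *Sox6* (transcription factors). At *Igf1r*, both sites were in introns, with fold enrichments of 4.58 and 7.10. At *Sox6*, the sites were 324 bp downstream of a TSS (6.84) and 144313 bp downstream (7.69). At *Notch2*, both were intronic, with 5.11 and 5.26.

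G and C content was lower at the sites. In the 501-bp summit windows the mean was 52.8%, against 59.3% in the weighted peaks with PBRM1 and 56.4% in −log10 q classes, where the difference fell to −3.62 percentage points. The replicates gave 52.6, 52.6 and 52.8% against 58.8, 58.6 and 58.7%, a difference of −6.06 ± 0.0943 percentage points (exact sign-flip permutation p = 0.25, n = 3). The 3 lists cover the same sites and much the same bases, so that this small spread is not that of new sites. The gap in G and C content was smaller within each place. Outside promoters the values were 50.4% and 53.8%, and at promoters 58.6% and 62.9%. The ratio of observed to expected CpG had a median of 0.535 at promoter sites against 0.721, and of 0.311 against 0.304 outside promoters.

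The AP-1 string, bound by FOS and JUN dimers, had shares that depended on the comparison. It was in 125 of 603 site windows (20.7%; 17.7 to 24.1%), in 15.1% of the weighted windows with PBRM1 and in 17.6% of windows at all pooled BRG1 peaks. In classes of G and C content, 21.3% of windows with PBRM1 held it, so that the difference turned sign. Outside promoters the shares were 22.9% at the sites and 23.4% in fold enrichment classes. In the replicates, the shares outside promoters were 22.4, 23.0 and 23.1% against 22.3, 22.9 and 22.9%, so that the sets differed by 0.115 ± 0.0409 percentage points (exact sign-flip permutation p = 0.25, n = 3), with the opposite sign to the pooled list. At promoters, 27 of 175 windows (15.4%; 10.8 to 21.5%) held it, against 9.71% in fold enrichment classes and 11.7% in G and C classes.

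Outside promoters, other strings differed by more in fold enrichment classes, and G and C content moved with them. The strings described here were picked from the 19 after their shares were seen. The HOX string was in 28.0% of site windows (24.0 to 32.5%) and 18.9% of weighted windows, the NF-Y box in 48.8% (44.1 to 53.6%) and 41.8%, and the GATA string (AGATAA) in 21.0% (17.4 to 25.1%) and 16.8%. The RUNX string was in 35.0% (30.7 to 39.7%) and 30.9%, and the GC box was lower, in 21.3% (17.6 to 25.4%) against 29.1%. Shares in all pooled BRG1 windows were 18.3% for HOX, 44.1% for NF-Y, 17.5% for GATA, 31.1% for RUNX and 30.5% for the GC box. With comparison peaks weighted to the sites' classes of G and C content instead, the shares with PBRM1 were 24.5% for HOX, 45.6% for NF-Y, 21.4% for GATA, 32.4% for RUNX and 22.5% for the GC box, each inside the sites' interval.

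In the replicate lists, the gap was smaller in G and C classes for these 5 strings, whereas for AP-1 it was larger and of the opposite sign. The HOX string was in 26.3, 26.5 and 27.9% of site windows against 24.3, 25.7 and 24.3%, a difference of 2.12 ± 1.42 percentage points (exact sign-flip permutation p = 0.25, n = 3). For the NF-Y box the difference was 4.26 ± 1.11 and for the RUNX string 3.40 ± 0.605, each higher in 3 of 3 replicates with the same exact permutation p. For GATA it was 0.238 ± 0.252 and for the GC box −0.697 ± 1.01, with an exact permutation p = 0.5 for both. For AP-1 it was −3.21 ± 0.239, with lower shares at the sites in 3 of 3 replicates (exact permutation p = 0.25). No test here could reach a threshold of 0.05. By the rule the 3 lists cover the same sites, so that their windows hold much the same bases around shifted summits. Agreement between replicates in these shares therefore follows largely from the choice of sites.

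**Figure D5:**
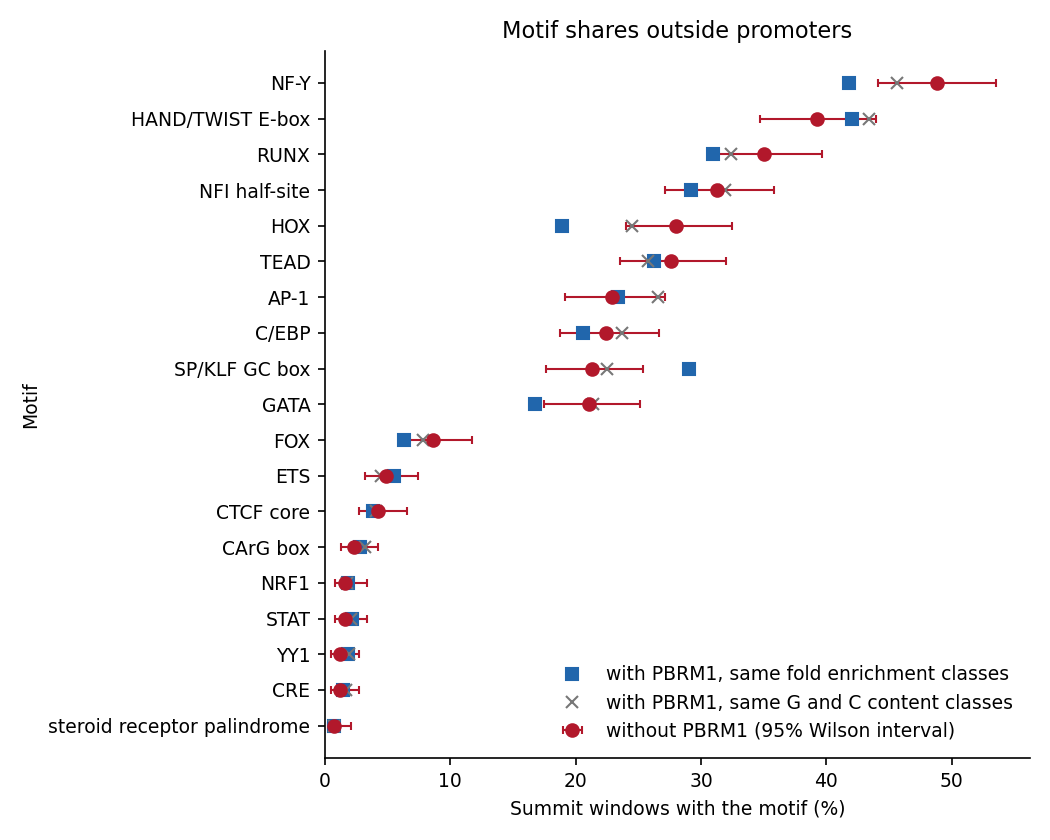
Percent of 501-bp summit windows outside promoters that hold each motif: 428 BRG1 sites without PBRM1 (circles, 95% Wilson intervals) and peaks with PBRM1 weighted to the sites' classes of fold enrichment (squares) or of G and C content (crosses). For HOX the circle is at 28.0%, the square at 18.9% and the cross at 24.5%.

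At promoters too, the GC box had a lower share at the sites and the GATA and HOX strings a higher one. These strings too were picked from the 19 after their shares were seen, and promoter shares were not compared over the replicates. In classes of G and C content, the shares with PBRM1 were outside the sites' intervals for the GC box, GATA, ETS and the CTCF core. For HOX the share was inside. These intervals cover counting error only. The ETS string was in 7.43% of site windows (4.39 to 12.3%), against 11.7% in fold enrichment classes and 15.8% in classes of G and C content. The GC box was in 50.9% of 175 site windows (43.5 to 58.2%) against 71.3% of weighted windows with PBRM1 and 63.1% in classes of G and C content. The GATA string was in 17.1% (12.3 to 23.4%) against 7.57% and 11.2%, and the HOX string in 16.6% (11.8 to 22.8%) against 8.71% and 12.6%. A match to the CTCF core was in 8 windows (4.57%; 2.33 to 8.76%) against 1.47% and 2.03%, and outside promoters in 4.21% against 3.81%. Among all pooled BRG1 windows 2.83% held it.

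The study tested 4 short strings in a *Hand2* enhancer, which it had predicted from its PBRM1 and BRG1 ChIC-Seq peaks in these cells. Their shares in BRG1 windows are thus a description and not an independent comparison. Over all 603 sites, CCAGGGCCT was in 2.65% of windows, TCCCAG in 48.9%, GACCACT in 5.14% and TCGGTG in 10.8%. In peaks with PBRM1 in fold enrichment classes the shares were 2.50, 53.4, 4.24 and 15.2%. Those of TCCCAG and TCGGTG were outside the sites' intervals of 45.0 to 52.9% and 8.55 to 13.5%. In classes of G and C content they were 1.97, 50.0, 4.55 and 12.2%, each inside the interval over all 603 sites. All pooled BRG1 windows gave 2.16, 50.9, 5.02 and 10.9%. At promoters, 2 strings were outside in classes of G and C content. CCAGGGCCT was in 4.57% of site windows (2.33 to 8.76%) against 1.69%, and TCCCAG in 40.6% (33.6 to 48.0%) against 48.8%.

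Among 20807 protein-coding genes, 417 (2.00%) were the nearest gene of a site without PBRM1. Of these 417, 324 (77.7%) were also the nearest gene of a reproducible BRG1 peak with PBRM1. Of 429 genes in 17 lists on implantation, signalling, matrix, chromatin and cell types, 20 (4.66%) had a site, and all 20 had a peak with PBRM1 as well. These lists also had BRG1 peaks with PBRM1 more often than coding genes at large, at 77.4% against 58.4%. The cell type lists (stromal, epithelial, endothelial, immune and smooth muscle markers), the Hox genes and the AP-1 and MAF factors had no gene with a site.

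The Wnt list had the largest count, 5 of 54 genes: *Lgr4* (a receptor of R-spondins), *Tcf7* (a nuclear mediator of beta-catenin), *Ror2* (a receptor of noncanonical Wnts), *Fzd9* (a Frizzled receptor) and *Axin2* (a feedback inhibitor). At *Lgr4* the fold enrichments were 8.33, 5.26 and 4.97 in the 3 BRG1 replicates, 3915 bp upstream of the TSS. At *Tcf7* they were 5.67, 6.46 and 6.27, 35570 bp upstream, with the nearest PBRM1 peak 10787 bp away. At *Axin2* they were 4.12, 3.33 and 3.97, and a PBRM1 peak was 829 bp away. All 5 Wnt sites were outside promoters, and their pooled fold enrichments ran from 3.63 to 7.76.

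The TGF-beta and BMP list had 4 of 44 genes. The sites at *Tgfbr1* (a type I receptor) and *Skil* (a SMAD corepressor) were at promoters, 158 and 554 bp from a PBRM1 peak, and *Tgfbr1* had the lowest pooled fold enrichment of all 603 sites, 2.86. Its replicates gave 2.98, 8.82 and 2.75, so that replicate 2 stood apart. The site nearest to *Smad3*, a signal transducer of the pathway, was 21058 bp upstream of a TSS in an intron. The site nearest to *Bmp2*, a ligand needed for decidualization, was 78588 bp downstream of its TSS, with fold enrichments of 3.53, 3.79 and 4.08, and PBRM1 was 75963 bp away. The decidualization list had 3 of 26 genes, *Bmp2*, *Alpl* (alkaline phosphatase) and *Igfbp5* (a binding protein of insulin-like growth factors), and the progesterone and implantation list had *Bmp2* alone of 35.

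The FGF list had 3 of 35 genes. *Fgfr2*, a receptor, had a site 93756 bp downstream of its TSS with 6.05, 5.37 and 6.14, *Fgf12*, an intracellular FGF, had one 183 bp upstream of a TSS with 5.55, 4.53 and 3.98, and *Spred2*, an inhibitor of RAS signalling, had an intronic one with 4.11, 4.38 and 4.46. At *Fgf12* the nearest PBRM1 peak was 86430 bp away. *Tead1*, a DNA-binding partner of YAP, was the single gene of 15 in the TEAD and YAP list, with a site 1411 bp downstream of a TSS. The collagen list had *Col8a1* and *Col23a1* of 42, the integrin list *Itga8* of 30, and the cytoskeleton and adhesion list *Tns1* of 29. *Col8a1* had the highest pooled fold enrichment of the list genes, 8.69, in an intron 39069 bp from PBRM1.

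One site lay at *Pbrm1* itself, the single gene of 28 in the SWI/SNF subunit list. Its summit was 356 bp downstream of a *Pbrm1* TSS, with BRG1 fold enrichments of 5.94, 4.89 and 3.66 in replicates 1, 2 and 3. A PBRM1 peak was 186 bp away, and *Pbrm1* also was the nearest gene of a reproducible BRG1 peak with PBRM1. This promoter site is thus among those with PBRM1 signal close by.

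As a check of the cells, a reproducible BRG1 peak was at the promoter of 11 of 16 stromal markers, 7 of 17 epithelial, 6 of 11 endothelial, 4 of 8 smooth muscle and 1 of 10 immune markers. Of all protein-coding genes on chromosomes 1 to 19, 12906 of 20807 (62.0%) had one, so that the stromal share of 68.8% is close to that of coding genes at large. The stromal markers without were *Col3a1*, *Dcn*, *Esr1*, *Hoxa11* and *Lum*. A promoter peak is not a level of expression. None of these marker genes was the nearest gene of a site without PBRM1, and the part of other cells in the results was not tested.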

How the data were processed

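Peak lists from ChIC-Seq of D4 WT mUSCs were analysed: 3 BRG1 lists, 3 PBRM1 lists and 1 pooled list per antibody. The authors trimmed reads, mapped them to mm10 (Bowtie2), filtered by mapping quality, removed duplicates and ran MACS 2.2.7.1 on each replicate and on all fragments of an antibody. The headers give a q-value cutoff of 0.05 and a regional background of 10000 bp. The deposited lists hold a pileup signal, a fold enrichment ratio, peak length and a −log10 p-value and q-value, as the authors' MACS call wrote them. The p-values were not used. Values are not scaled between libraries, so none was compared between PBRM1 and BRG1.

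Overlaps of at least 1 bp, TSS distances (GENCODE M21, all transcripts), nearest protein-coding or lncRNA genes and sequence windows (RefSeq GRCm38) were computed in Python 3.11.15 with numpy 2.4.6 and pandas 2.3.3, and the steps were tested on simulated data. Replicate differences were compared by an exact sign-flip permutation test. When all replicate differences share a sign, this exact permutation test gives its smallest possible value, whatever their spread. It thus reflects agreement in sign among these samples only. Depth limits which weak PBRM1 peaks were called, and thus which sites count as lacking PBRM1. With 38144108 pooled fragments the PBRM1 list held 54164 peaks on chromosomes 1 to 19. With 37842839 the BRG1 list held 81327. Whether weak PBRM1 sites were missed more often than weak BRG1 sites was not tested. Named were the 15 sites and the 6 coding promoters of highest fold enrichment, list genes nearest to a site, and 3 peaks on each side of the rule. Printed windows avoid chromosome 18, windows over 50% repeat-masked and untranslated regions. The sites, gene lists and motifs were chosen with earlier results of these data known.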

Additional observations from a re-analysis of the deposited data

How the results depend on the processing

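Every difference named here is that of the sites minus BRG1 peaks with PBRM1, and 2 of them changed direction. With classes of −log10 q, the neighbour share differed by 0.205 percentage points in place of −14.5, promoter share by −16.9, TSS distance by 4255 bp, width by −177 bp, G and C content by −3.62 and AP-1 share by 3.41. Among peaks outside promoters, the AP-1 share differed by −0.459, TSS distance by 2702 bp, width by −145 bp, neighbour share by −10.0 and G and C content by −3.46. At promoters the last 4 were 163 bp, −307 bp, −9.48 and −4.25. The split by place was chosen after seeing the data, as were the G and C classes and leaving out the site near *Gm15319*. The differences without classes were −41.1 for promoter share, 7313 bp, −296 bp, −3.53 for neighbours, −7.49 for G and C content and 8.10 for AP-1. In 5 classes they were −32.6 for promoter share, 6923 bp for distance, −13.8 for neighbours and −6.62 for G and C content, and in 20 classes −14.9 for neighbours. A fold enrichment of at least 5 gave −33.7, 9065 bp, −257 bp, −12.6 and −6.77 in the same order. With 50% of the peak covered in each replicate, 235 sites were left, with −35.8, 5499 bp, −304 bp, −16.8, −7.73 and, for AP-1, 7.52. Without sites within 1000 bp of PBRM1 the values were −38.0 for promoters, 9743 bp for distance, −21.7 for neighbours, −7.53 for G and C content and 6.77 for AP-1. That neighbour value is tied to the rule, since most BRG1 neighbours overlapped PBRM1. For sites in no PBRM1 list at all they were −32.3 for promoters, 7194 bp and −6.68 for G and C content. Absence from the 3 PBRM1 replicate lists alone gave 2063 sites, 6212 bp, −16.2 for neighbours, −6.32 for G and C content and 6.82 for AP-1. A promoter distance of 5000 bp gave a promoter difference of −29.0. TSSs of protein-coding genes gave −32.3 and 14186 bp, and those of basic transcripts 10424 bp. Neighbour distances of 5000 and 50000 bp gave −13.8 and −10.6. Windows of 100 and 500 bp on each side gave −6.19 and −5.83 for G and C content and 3.93 and 6.89 for AP-1. Leaving out 1 BRG1 replicate gave 1276 to 1570 sites. Leaving out 1 PBRM1 replicate, which also replaces the pooled PBRM1 list by replicate lists, gave 2745 to 3239 sites, against 2063 with all 3 of those lists. Over both, the differences were −34.8 to −25.3 percentage points in promoter share, 4754 to 7852 bp in TSS distance, −231 to −206 bp in width, −19.6 to −14.3 in neighbour share, −7.32 to −4.61 in G and C content and 3.71 to 7.82 in AP-1 share. The cause of these shifts was not tested. The sign-flip tests compare sets of peaks within each BRG1 replicate. No paired analysis was possible because values of the antibody groups that share replicate numbers were not compared.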

Other observations

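On chromosome X, 11 of 455 reproducible BRG1 peaks (2.42%) had no PBRM1 peak, and on chromosome Y 1 of 5. As the cells came from female mice, the chromosome Y peaks are not read as BRG1 sites, and their origin was not tested. Among chromosomes 1 to 19 the share ran from 1.72% on chromosome 17 to 3.65% on chromosome 1. Over 50% of the summit window was repeat-masked at 0.332% of the 603 sites and at 0.180% of peaks with PBRM1 in fold enrichment classes.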
